A study of Mus musculus with 2 samples.

Results

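The choroid plexus spots of a mouse brain section are described here: 55 of the 3358 barcoded spots of the section that held at least 2000 counts and 200 features. They were chosen by expression. Spots were ranked by the summed counts of Ttr, Kl, Folr1, Clic6, Kcnj13, Sostdc1 and Tmem72 over the total of the spot, and the first 55 were taken. The other 3303 spots of the same section are called the remaining spots. The series holds 1 section of normal mouse brain and 1 section of normal mouse heart, each 5 µm thick and cut from formalin-fixed, paraffin-embedded (FFPE) tissue, with a single library per tissue (n = 1). Random primers were used to reverse transcribe the RNA within the section; they read total RNA rather than only polyadenylated RNA, and both libraries share a step in which reverse transcription used a primer that lacked the second cell barcode. The labels give no strain, age, sex or treatment of the animals. The heart section serves only to show the level of the same genes in a tissue with no choroid plexus.

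A spot is a small area of tissue. It can hold several cells of different types or part of a cell, and spots of 1 section are not replicates, so no test was made and no p-value is given. Levels are in CPM, the counts of a gene divided by all counts of the spots concerned and scaled to 1000000. A ratio is the CPM of the 55 spots over that of the remaining spots. Values in brackets after a ratio are its 95% interval, which covers counting error only and takes each count as a separate molecule. A higher or lower level of a gene in a spot cannot be divided into more or fewer cells of a type and more or less RNA per cell.

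The choroid plexus is a fold of vascular tissue in the brain ventricles, covered by a sheet of cuboidal epithelium. Its epithelial cells are joined by tight junctions and make cerebrospinal fluid by moving sodium, chloride, bicarbonate and water from the blood side to the ventricle. They also secrete carrier proteins, chiefly transthyretin, the product of Ttr, and they carry many transporters for hormones, vitamins, metals and drugs. The stroma beneath them holds leaky capillaries, fibroblasts and macrophages, and the neighbouring ventricle wall is lined by ciliated ependymal cells.

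The rule genes were unevenly spread over the 55 spots, which are described as ranks 1 to 25 and ranks 26 to 55. There was no gap between these ranks, with 3063 CPM of the rule genes at rank 25 and 2920 CPM at rank 26. Ranks 1 to 25 held 96.9% of the rule-gene counts and 77.1% of all counts of the 55 spots. Summed over the 7 rule genes, the level per spot ran from a lowest of 658 CPM through a median of 2835 CPM to a highest of 13943 CPM. The spot at rank 55 had 658 CPM and the first spot outside, rank 56, had 648 CPM, so the edge of the set falls on a slope and not at a gap. In ranks 26 to 55 a spot held a median of 3.5 rule-gene counts, and 24 of the 55 spots held fewer than 10. Ttr was not counted in 4 of the 55 spots. Of the remaining spots, 2629 held no count of any rule gene.

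Other epithelial genes, which the rule did not use, also had a higher level in ranks 1 to 25. The summed level of 23 further choroid epithelium genes was 17180 CPM in ranks 1 to 25 and 3904 CPM in ranks 26 to 55, against 1481 CPM in the remaining spots and 709 CPM in the heart. Per spot it ran from 6471 through 14755 to 22813 CPM in ranks 1 to 25, and from 0 through 2442 to 17571 CPM in ranks 26 to 55. The highest remaining spot had 10453 CPM, so the better ranked spots overlapped the top of the remaining ones and the lower ranked spots lay largely inside their range. Much of this sum outside ranks 1 to 25 was Trpm3, a gene less restricted than most of the others. Trpm3 gave 956 of the 1481 CPM in the remaining spots, with up to 9955 CPM in 1 spot. In ranks 26 to 55 it gave 2005 of the 3904 CPM. The decline was gradual and uneven, with 6471 CPM at rank 22, 8505 CPM at rank 28 and 8618 CPM at rank 32. Neuronal genes ran the other way. Summed over 18 pan-neuronal genes, the level was 1325 CPM in ranks 1 to 25, 5290 CPM in ranks 26 to 55 and 7781 CPM in the remaining spots. By these markers the name choroid plexus holds for ranks 1 to 25, while in ranks 26 to 55 the neuronal sum was above the epithelial one. Ratios given without ranks are for the 55 spots together, and they rest mostly on ranks 1 to 25. Of the 362 features called higher in the 55 spots, 174 had a ratio of at least 2 in ranks 26 to 55. That number sets no floor of counts in those ranks, so a ratio can rest on very few counts. With at least 30 counts in ranks 26 to 55, 38 features were called higher there, 6 of them among the 362. Across the 55 spots the rule-gene sum had a Spearman rho of 0.88 with the other epithelial genes and of -0.78 with the neuronal genes, as a description over spots that share 1 library.

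**Figure D1:**
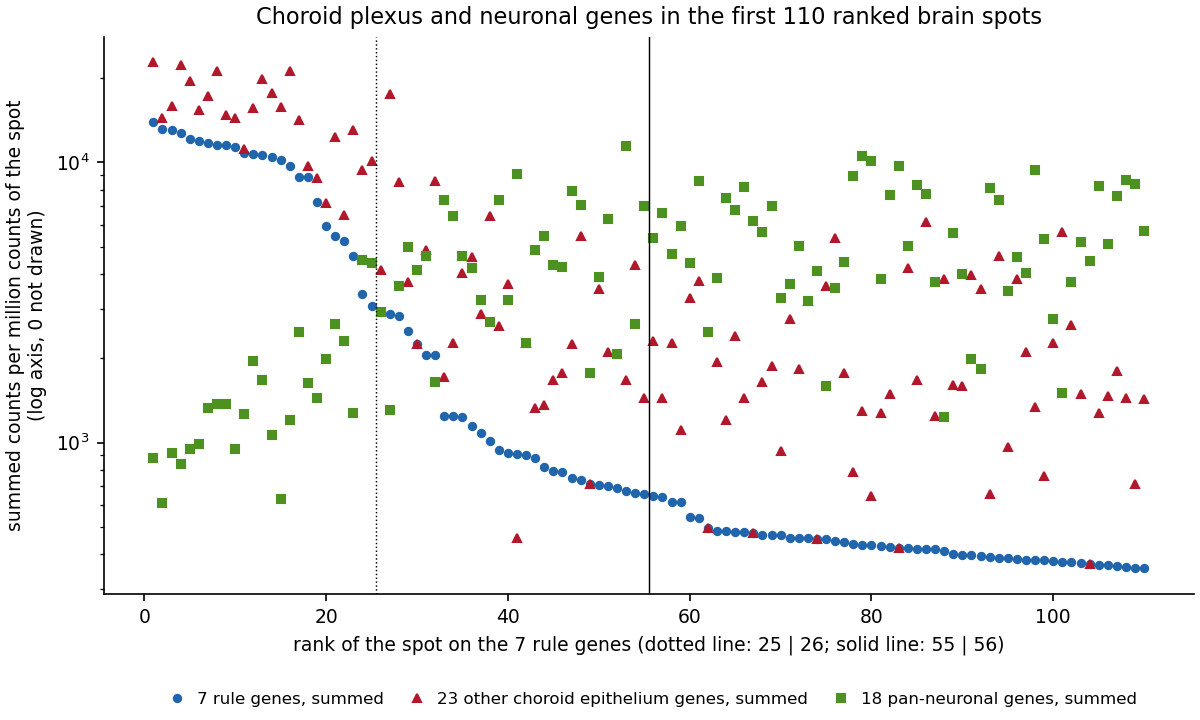
Summed level (CPM, log axis) of the 7 rule genes, 23 other choroid epithelium genes and 18 pan-neuronal genes in each of the first 110 ranked brain spots, 1 point per spot and list. The 23 other epithelial genes stay above the neuronal genes up to rank 25 (dotted line) and the rule genes up to rank 23, and past rank 25 the lists mix on both sides of the edge of the set at rank 55 (solid line).

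The spots also differed in depth and in ribosomal RNA. The median depth was 23041 counts in ranks 1 to 25, 3125 in ranks 26 to 55 and 7212 in the remaining spots. Ribosomal RNA took 43.5%, 31.8% and 31.0% of their counts in that order. Across the 55 spots the rule-gene sum had a rho of 0.71 with depth and of 0.82 with the ribosomal share, and the part of either in the results was not tested. At an equal depth of 2000 counts a spot showed a median of 802 features in ranks 1 to 25, 942.5 in ranks 26 to 55 and 936 in the remaining spots. Without thinning these medians were 4628, 1319 and 2418 features. The brain and heart libraries held 37300503 and 44768698 counts over the same 4992 barcodes. No Ttr count of the heart section fell on a barcode of the 55 spots. The heart spots that passed the depth cut held only 36 Ttr counts, in 32 spots, so this 0 carries little information.

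The rule genes themselves are given as a description, since they chose the spots. Ttr, the carrier of thyroxine and retinol-binding protein, had 4917 counts in the 55 spots, 6967 CPM, against 9.22 CPM in the remaining spots and 0.819 CPM in the heart. Per spot it ran from 0 through 1946 to 11219 CPM, with every spot of ranks 1 to 25 at 2566 CPM or above and no remaining spot above 616 CPM. The 55 spots thus held 93.7% of the Ttr counts of the spots assessed. Sostdc1, a secreted inhibitor of BMP signalling, stood at 239 against 0.646 CPM, and 88.0% of its counts were in the 55 spots. Kl, the FGF coreceptor klotho, had 672 against 6.58 CPM. Clic6, an intracellular chloride channel family member, had 347 against 3.96 CPM, and the membrane protein gene Tmem72 had 333 against 4.10 CPM. Folr1, the folate receptor that carries folate into cerebrospinal fluid, was the least restricted, at 59.5 against 2.89 CPM with 29.0% of its counts in the 55 spots. Kcnj13, an inwardly rectifying potassium channel, had 59.5 against 0.843 CPM. It lies within Gigyf2 on the other strand, which had 53 counts in the 55 spots, and reads of the pair cannot be told apart where strand was not used.

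Enpp2 was the leading gene outside the rule. It encodes autotaxin, the secreted enzyme that makes lysophosphatidic acid. Its level was 6982 CPM in the 55 spots, as high as that of Ttr, against 68.9 CPM in the remaining spots and 14.7 CPM in the heart, a ratio of 101 (96.5 to 106). Per spot it ran from 2723 through 7963 to 11765 CPM in ranks 1 to 25 and from 0 through 623 to 5770 CPM in ranks 26 to 55, and the highest remaining spot had 2305 CPM. No spot of ranks 1 to 25 overlapped the remaining spots. Down the ranking the pooled level was 8791 CPM in ranks 1 to 25, 891 CPM in ranks 26 to 55, 234 CPM in ranks 56 to 110, 166 CPM in ranks 111 to 220 and 64.5 CPM from rank 551 on. In ranks 1 to 25 a spot held between 0.50 and 1.46 Enpp2 counts for each Ttr count, with a median of 0.987. At an equal depth of 2000 counts Enpp2 was counted in 81.8% of the 55 spots (exact binomial interval 69.1 to 90.9) and 14.8% of the remaining spots. Without thinning these shares were 90.9% and 40.8%, and 16.0% of heart spots, of median depth 11041 against 6945 in the 55, held a count.

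Htr2c, the serotonin 2C receptor, whose level in choroid plexus epithelium is among the highest in brain, had 1539 against 62.8 CPM, a ratio of 24.5 (22.8 to 26.4). It ran from 144 through 1673 to 2988 CPM in ranks 1 to 25, from 0 through 229 to 2360 CPM in ranks 26 to 55, and reached 1802 CPM in the remaining spots, so it overlapped more than Enpp2 did. Trpm3, a cation channel that hosts the microRNA gene Mir204, was much less restricted. It had 3538 CPM in the 55 spots, 956 CPM in the remaining spots and 438 CPM in the heart, a ratio of 3.70 (3.55 to 3.86), and its highest spot was a remaining one at 9955 CPM.

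Of the 24 further epithelial genes listed, 23 were in the files and 21 had a ratio above 1. A gene was assessed where the 55 spots held at least 30 counts or would be expected to from the remaining spots. It was called higher at a ratio of at least 2 with 30 counts there, and lower at a ratio of at most 0.5 with 30 counts expected. Of the 3648 features assessed, 9.92% were called higher and 23.4% lower, and the median log2 ratio was -0.30. Of these, 574 were assessed only through their counts in the 55 spots, so they could not be called lower. Of the 3074 assessed through expected counts, 77 were called higher. The share of 9.92% is therefore no like measure for lists assessed mostly through the 55 spots. The epithelial list had 17 genes assessed, 12 of them only through their counts in the 55 spots, with 16 called higher and a median of 4.58. The summed ratio was 9.55 (9.34 to 9.75) with Enpp2 and 5.07 without it. In ranks 26 to 55 it was 2.64 (2.43 to 2.85).

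Apart from Enpp2 and Htr2c the steepest of them were sparse. Mfrp, a frizzled-related membrane protein, had 48 counts and a ratio of 142 (80.4 to 264). Ecrg4, a precursor of secreted peptides, stood at 83.0 (52.1 to 134). The lipopolysaccharide-binding protein Lbp had 40.3, the angiotensin-converting enzyme Ace 39.7, coagulation factor F5 34.3 and the homeobox factor Otx2 30.9. Collagen genes Col9a3, Col8a2 and Col8a1 had ratios of 23.8, 17.9 and 15.1, Cab39l, a scaffold of the kinase Stk11, had 8.15, and the prolactin receptor Prlr had 5.16. Vat1l and Strip2 followed at 4.58 and 5.62. In ranks 26 to 55 the ratio of F5 was 3.76 and that of Prlr 1.16, the latter with an interval of 0.314 to 2.97. The long antisense RNA Kcnq1ot1 was the assessed member that was not called, at 149 against 177 CPM.

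**Figure D2:**
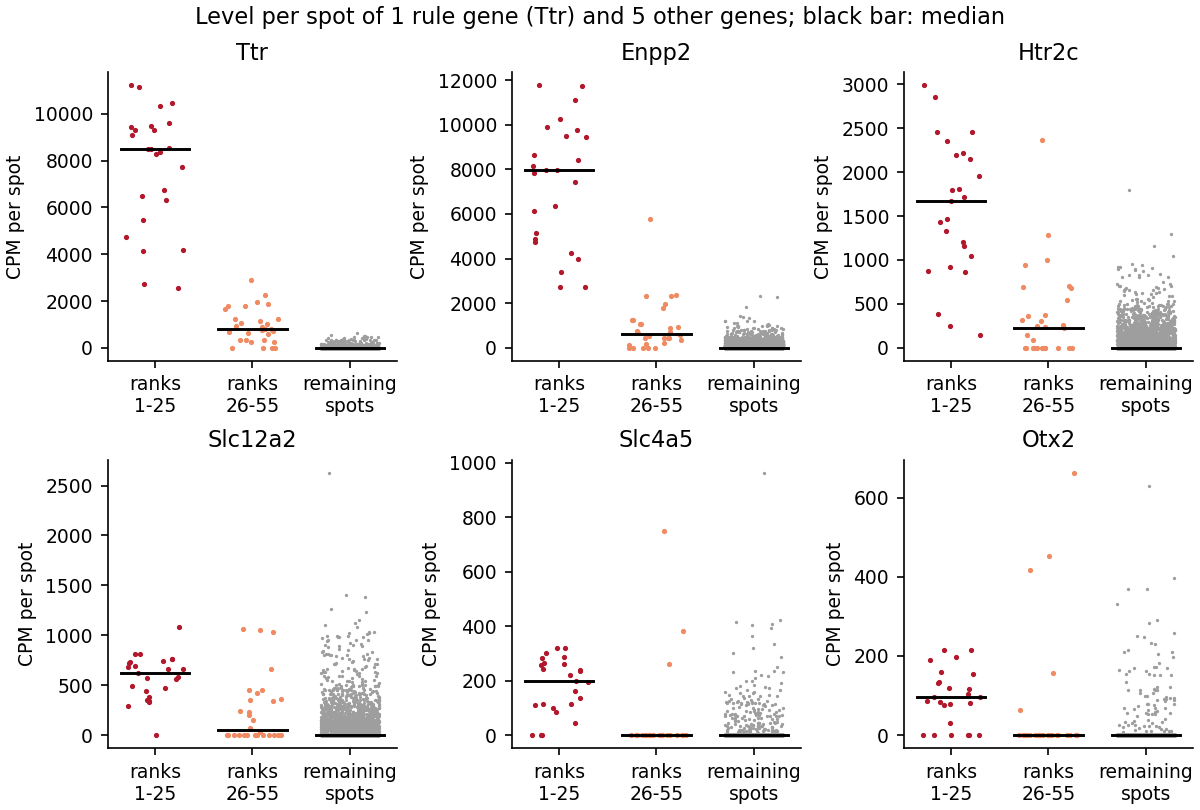
Level (CPM) in each spot of Ttr, which chose the spots, and of 5 genes outside the rule, for ranks 1 to 25, ranks 26 to 55 and the remaining 3303 spots. Each point is a spot and the black bar is the median; Enpp2 in ranks 1 to 25 lies above all remaining spots, while Htr2c, Slc12a2, Slc4a5 and Otx2 overlap them.

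Promoters of 279 of the genes called higher were found among the RefSeq start-site windows of build GRCm38.p6, each 250 bases before to 50 after a start. The homeodomain factor Otx2 binds the letters TAATCC, which read GGATTA on the other strand, and these were looked for because Otx2 itself was among the steepest genes. They were in 31 of the 386 windows of genes called higher (8.03%), in 5.26% of the windows of all genes assessed, in 4.98% of those of genes called lower and in 7.06% of all 32851 windows. Windows were counted singly, so 1 gene can count more than once, as Sft2d2 did with overlapping windows. The forkhead letters GTAAACA were in 2.85% of the windows of genes called higher and 3.65% of all, and the RFX letters GTTGCCA in 4.40% and 4.38%, with both strands searched. In the windows of all genes assessed and of genes called lower, these shares were 2.30% and 1.44% for the forkhead letters and 3.52% and 3.21% for the RFX letters. For each of the 3 motifs the share for genes called higher was above that for genes assessed, and no test was made. A match describes the letters and is no evidence of binding. The bases before the start are shown for 3 genes, with TAATCC or GGATTA in capitals. Among genes called higher, which leaves out the rule genes, these had the largest ratios of those whose window held the letters. They are Mfrp at chr9:44101520-44101769 on the plus strand, 1 of 2 windows of Ace at chr11:105967698-105967947 on the plus strand, and 1 of 4 windows of Otx2 at chr14:48665110-48665359 on the minus strand.
Mfrp: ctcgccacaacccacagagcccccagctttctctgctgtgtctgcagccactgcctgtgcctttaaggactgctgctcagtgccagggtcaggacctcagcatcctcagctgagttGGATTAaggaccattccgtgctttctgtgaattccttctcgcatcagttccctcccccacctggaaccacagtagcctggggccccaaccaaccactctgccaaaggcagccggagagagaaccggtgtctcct
Ace: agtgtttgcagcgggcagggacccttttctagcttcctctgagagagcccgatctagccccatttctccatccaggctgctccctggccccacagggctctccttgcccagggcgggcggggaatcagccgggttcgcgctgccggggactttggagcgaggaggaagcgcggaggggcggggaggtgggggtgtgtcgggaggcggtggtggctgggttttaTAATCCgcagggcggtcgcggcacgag
Otx2: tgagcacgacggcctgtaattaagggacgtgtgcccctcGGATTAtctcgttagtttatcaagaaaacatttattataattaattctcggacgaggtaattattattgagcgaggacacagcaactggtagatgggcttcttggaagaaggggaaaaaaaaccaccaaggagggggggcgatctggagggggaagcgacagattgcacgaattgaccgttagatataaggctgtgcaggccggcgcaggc
The first capital lies 134 bases before the start in Mfrp, 27 before it in Ace and 211 before it in Otx2.

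Across all features the 55 spots had 362 called higher and 853 called lower. Of the features assessed, 574 were so only through their counts in the 55 spots, and 77 of those called higher had 30 counts expected. The ratio was at least 10 for 45 features and under 3 for 164. Protein-coding genes made up 347 and long non-coding RNAs 11. Of the features called higher, 347 had a ratio of at least 2 in ranks 1 to 25 and 174 in ranks 26 to 55, with no floor of counts set in either part. Both parts entered the calls, with 77.1% of the counts in ranks 1 to 25, so neither count is a separate check. When levels were scaled to the counts outside ribosomal, mitochondrial and small RNA, the median log2 ratio moved from -0.30 to 0.02, and the calls became 509 higher and 543 lower, so that 48.4% of calls were higher in place of 29.8%. Ratios of single genes are given on the total-count scale, and on the other scale each is larger by 1 common factor.

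**Figure D3:**
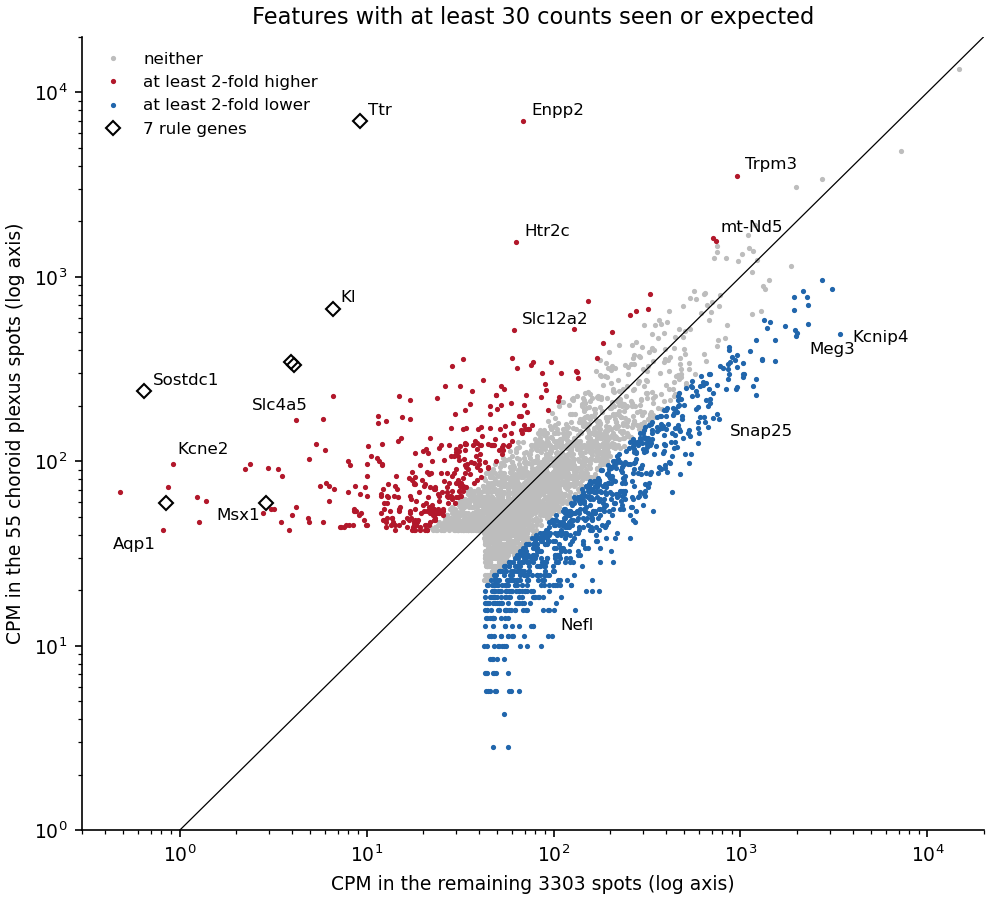
Level (CPM, log axes) of each assessed feature outside ribosomal RNA in the 55 spots against the remaining 3303 spots, with the line of equality. Red points were called higher and blue points lower; Enpp2 and Htr2c stand at a distance from the rest, with Ttr and the other rule genes (open diamonds) left of them.

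Ion and water transport genes were led by those of the epithelial secretion machinery. Kcne2, a potassium channel subunit that sits in the ventricle-facing membrane, had the largest ratio of any gene with at least 50 counts outside the rule, 104 (67.6 to 163), at 96.3 against 0.927 CPM. Aqp1, the water channel of the same membrane, had 30 counts and a ratio of 52.2 (30.3 to 90.1), all of them in ranks 1 to 25, and the heart had a like level, 41.5 against 42.5 CPM. Slc4a5, an electrogenic sodium bicarbonate cotransporter, had 170 against 5.84 CPM (29.1, 23.04 to 36.6), and Slc4a2, the anion exchanger of the blood-facing membrane, 103 against 4.95 CPM (20.9). Carbonic anhydrase Car12 had a ratio of 14.0 and Car2 one of 4.15.

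The abundant members of the machinery differed less. Slc12a2, the sodium potassium chloride cotransporter NKCC1, ran from 0 through 625 to 1079 CPM in ranks 1 to 25, against a median of 0 and a highest value of 2629.6 CPM in the remaining spots, and its ratio was 8.34 (7.44 to 9.33). Its groups overlapped over the whole range. Stk39, the kinase SPAK that regulates it, had 4.89, and the sodium bicarbonate transporter Slc4a10 had 2.45 at 802 CPM. The sodium pump subunit Atp1b1 was not called, at 315 against 483 CPM. Of the 28 genes listed, 17 were assessed, 7 only through the 55 spots; 10 were called higher and 2 lower, with a median of 1.29. Those called lower were Kcna1, a neuronal potassium channel, 4.33-fold lower, and Slc4a7, 2.07-fold lower. Oxsr1 was listed at 0 in both sections. The summed ratio of the list was 2.36 in ranks 1 to 25 and 1.08 (0.961 to 1.2) in ranks 26 to 55, where Slc12a2 had 2.52, Stk39 1.91 and Slc4a10 1.0.

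Transporters for solutes, vitamins and metals had 13 of 29 genes assessed, 10 only through the 55 spots, and 9 were called higher and 0 lower. The sulfate transporter Slc13a4 had a ratio of 12.7 (9.22 to 17.1), the glucose transporter Slc2a12 11.7, the copper importer Slc31a1 9.24 and the metal reductase Steap2 7.33. The monoamine transporter Slc29a4 had 6.22. Slco1a4 and Slc22a17, an organic anion transporter and a lipocalin receptor, had 3.61 and 2.61. The proline transporter Slc6a20a had 3.04, but with each spot thinned to 2000 counts its log2 ratio was -0.57. In ranks 26 to 55 the ratio of Slc2a12 was 1.52 and that of Slc31a1 1.09. Summed over the 29 genes the level was 1418 against 557 CPM in the remaining spots, a ratio of 2.55 (2.39 to 2.72), and 1.42 in ranks 26 to 55.

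Of 14 genes of thyroid hormone and retinoid handling, 4 were assessed, each only through the 55 spots, which allows no call of lower, and the 4 were called higher. Over the 14 genes, 9 had a ratio above 1 and the median log2 ratio was 0.95. Slco1c1, which carries thyroxine, had 170 against 17.2 CPM (9.90, 8.07 to 12.1). Rdh10, a retinol dehydrogenase, had a ratio of 5.60. Ttr, a rule gene, carries both ligands in the fluid.

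Junction and cytoskeleton genes were mixed. Cldn1, a tight junction claudin, had 45 counts in 14 of the 55 spots and a ratio of 51.6 (33.3 to 80.0), with 44 of the counts in ranks 1 to 25. Ezr, the microvillus protein ezrin, had 10.03, the protease inhibitor Spint2 11.7 and the apical motor Myo5b 3.06. Tjp1, which is also present in endothelium and neurons, was not called, at 101 against 194 CPM. Cldn2, the claudin of leaky epithelia, fell short of 30 counts; 25 of its 26 counts in the 55 spots were in ranks 1 to 25, and the remaining spots had 15. Of 20 genes listed 8 were assessed, 6 only through the 55 spots, with 5 called higher and 0 lower.

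Secreted proteins had 11 of 22 genes assessed, 7 only through the 55 spots, with 10 called higher, 0 lower and a median of 1.99. Igfbp2, a binding protein of insulin-like growth factors, was the steepest at 124.7 against 5.37 CPM (23.2, 17.8 to 30.1), and Igfbp5 and Igfbp7 had 4.68 and 3.93. Sulf1, an extracellular sulfatase of heparan sulfate, had 330 against 28.8 CPM (11.5, 9.90 to 13.2). Clusterin (Clu) had 6.54, transferrin (Trf) 3.99, apolipoprotein E (Apoe) 3.88, Bmp6 3.84, cystatin C (Cst3) 2.83 and prostaglandin D synthase (Ptgds) 2.13. The ratios of Trf and Ptgds were 4.67 and 2.78 in ranks 26 to 55, and 3.79 and 1.94 in ranks 1 to 25. For Ptgds the intervals overlapped, at 1.81 to 4.09 and 1.48 to 2.50. The difference was not tested for either gene. Both genes are also made by oligodendrocytes. App, the amyloid precursor, was the gene assessed and not called, at 510 against 507 CPM. Igf2 was listed at 0 in both sections.

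Cilia genes were called higher in 8 of the 11 assessed of 29 listed, 7 assessed only through the 55 spots, with a median of 1.54. Cfap44 had a ratio of 8.01, Ak9 6.28, the axonemal dyneins Dnah6 and Dnah11 5.34 and 4.81, Cfap43 3.31, Spag16 2.91, Dnah9 2.25 and Hydin 2.08. In ranks 26 to 55 the log2 ratio of Dnah9 was -0.14. Drc7, a part of the axonemal regulatory complex that was not on the list, was steeper, at 90.7 against 2.25 CPM (40.3, 28.6 to 56.7). Ependymal cells and choroid epithelium both bear cilia, and Mia was the listed gene at 0 in the 55 spots. Summed over the list the ratio was 2.57 (2.41 to 2.73), and 1.38 in ranks 26 to 55.

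Transcription factors named for the choroid plexus and ependyma had 10 of 28 assessed, 5 only through the 55 spots, and 6 called higher. Over the 27 with counts, 20 had a ratio above 1 and the median log2 ratio was 0.49. Msx1, a homeobox factor of the dorsal midline, had 60.9 against 1.38 CPM (44.2, 28.7 to 68.0). Gmnc, the geminin-related factor that starts multiciliation, had 19.2, and Lmx1a, a factor of the roof plate from which the choroid plexus arises, 8.67. Tead1 and Nfia, which many glial and epithelial cells share, had 3.49 and 2.38. Rfx3 was not called, at 272 against 318 CPM, and Msx2, Emx2, Sox2 and Mcidas had no count in the 55 spots, Sox2 none in either section.

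Receptors were split. Besides Htr2c and Prlr, the leptin receptor Lepr had a ratio of 5.06 (3.66 to 6.87), the TGF-beta coreceptor Tgfbr3 3.33 and Igf2r 2.25. The mineralocorticoid receptor Nr3c2 and the adenosine receptor Adora1 were called lower, 2.32-fold and 2.85-fold, although with each spot thinned to 2000 counts the log2 ratio of Adora1 was 0.37. At that depth only 6 of the 55 spots held a count of Adora1. Of 20 listed, 13 were assessed, 5 only through the 55 spots, and the median was 0.38. Without Htr2c the summed ratio of the list was 1.21 in place of 2.37.

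Other genes entered by size alone. With at least 50 counts in the 55 spots, the ankyrin repeat gene Sowahc had a ratio of 26.9, the adhesion molecule Vcam1 13.1, the fatty acid elongase Elovl7 12.99, Ly6e 12.7, the junction protein Cgnl1 12.6 and the sphingomyelin synthase Sgms2 11.8. Vcam1 is also made by activated endothelium and fibroblasts. Among long non-coding RNAs A330049N07Rik had 177 against 11.6 CPM (15.3, 12.4 to 18.7), and Otx2os1, which overlaps Otx2 on the other strand, 255 against 26.4 CPM (9.68). Neat1 followed at 5.63, Gm29266 at 5.62 and Gm4876 at 3.61. Since use of strand is not given in the sources used here, Otx2 and Otx2os1 are uncertain as a pair. Of the 10 protein-coding genes of highest level, Enpp2, Trpm3, Htr2c, mt-Nd5 and mt-Cytb are described elsewhere. The mitochondrial genes mt-Co1 and mt-Nd2, with ratios of 1.59 and 1.98, were not called. Dmd, Ndufs7 and Zfhx3 were near the same level in all tissue, with ratios of 1.25, 1.54 and 1.30 and heart levels of 2122, 2302 and 1045 CPM.

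All 13 mitochondrially encoded genes had a ratio above 1, 4 were called higher, and the median log2 ratio was 0.84; their sum was 11191 against 6063 CPM, and 15188 CPM in the heart. The called genes were mt-Nd6 (2.42), mt-Nd5 (2.29), mt-Cytb (2.10) and mt-Nd3 (2.03), which encode subunits of complex I and complex III. mt-Nd5 ran from 680 through 1721 to 3186 CPM in ranks 1 to 25 and from 0 through 777 to 4574 CPM in the remaining spots, so the groups overlapped. Nuclear genes of oxidative phosphorylation had a median of 0.34, with 7 of 24 listed assessed and 0 called in either direction.

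**Figure D4:**
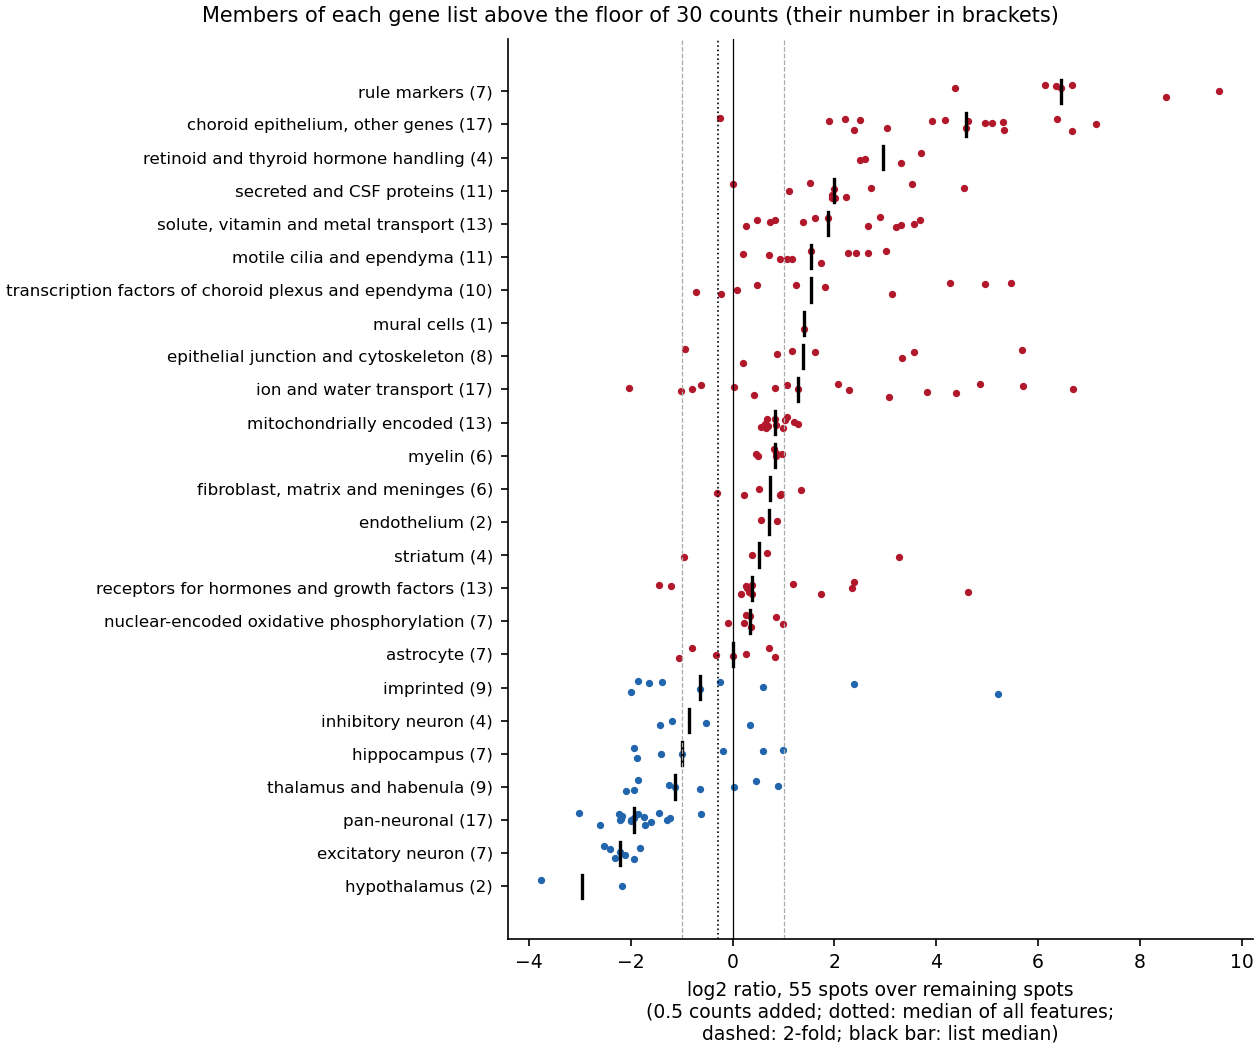
Log2 ratio of the 55 spots over the remaining spots for each listed gene above the floor of 30 counts, 1 point per gene, with the list median as a black bar and the number of genes in brackets. The 7 rule genes and the 17 other epithelial genes lie furthest right. The hypothalamic, excitatory and pan-neuronal lists lie furthest left, below the median of all assessed features (-0.30, dotted).

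All 18 pan-neuronal genes had ratios below 1, 17 were assessed, 16 were called lower and the median log2 ratio was -1.94; the list was 3.48-fold lower in sum. Snap25, a presynaptic fusion protein, ran from 0 through 166 to 707 CPM in the 55 spots and from 0 through 681 to 2693 CPM in the remaining spots, 4.57-fold lower (3.82 to 5.52) with overlapping groups. Nefl, the light neurofilament, was 8.61-fold lower and Syt1, the calcium sensor of release, 3.63-fold lower. All 7 excitatory genes assessed were called lower, among them the glutamate transporter Slc17a7 (5.96-fold) and the receptor subunit Grin2b (4.31-fold). The sum of the inhibitory neuron genes had a ratio of 0.939 (0.851 to 1.03), and 1.48 (1.25 to 1.73) in ranks 26 to 55. Of the 4 assessed of 9 listed, 2 were called lower. These were Gad1 and Gad2, which make the transmitter GABA, with ratios of 0.363 and 0.432 in the 55 spots and of 1.0 and 1.21 in ranks 26 to 55. The receptor gene Erbb4 had 1.26.

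Among genes with at least 50 counts expected, the smallest ratio was that of the calcium channel gene Cacna1b, 8.77-fold lower (5.22 to 16.1). Hpcal4, Nefl, Chgb, Scg2, Ywhah, Dnm1, Vsnl1, Kcnip4 and Gabrb2 followed, with ratios from 0.115 to 0.150. Kcnip4, a potassium channel partner, was the most abundant of them, at 492 against 3394 CPM. The decrease was deeper in ranks 1 to 25. There the pan-neuronal sum had a ratio of 0.170, against 0.680 in ranks 26 to 55.

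Imprinted genes went both ways. Cdkn1c, an inhibitor of the cell cycle, had 33 counts and a ratio of 37.0 (22.9 to 59.2), and the zinc finger gene Plagl1 had 5.19. The maternally expressed non-coding RNAs of the Dlk1 cluster were lower: Meg3 had 497 against 1993 CPM, 4.01-fold lower (3.61 to 4.46), Rian was 3.67-fold and Mirg 2.72-fold lower, and Impact, outside that cluster, was 3.18-fold lower. Of 20 listed, 9 were assessed, 2 called higher and 4 lower. The 2 called higher were the 2 assessed only through the 55 spots, which allows no call of lower. Over the 19 with counts, 7 had a ratio above 1.

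Genes of other cell types were also counted in the spots, and whether the cells themselves were present was not tested. The background level given at the end was not subtracted from these sums. The 13 endothelial genes summed to 230 against 136 CPM (1.69, 1.43 to 1.97), with a range over spots of 0 to 1353 CPM in the 55 and 0 to 2010 CPM in the remaining; 8 of 13 had a ratio above 1, 2 were assessed, 0 were called, and Cldn5 and Egfl7 were at 0 in the 55 spots. Mural genes summed to 167 against 78.6 CPM, from 0 to 1217 CPM over the 55 spots and 0 to 2794 CPM over the remaining. Of these, 7 of 8 had a ratio above 1, and Rgs5, a pericyte gene, was called higher at 2.62. Rgs5 was the 1 mural gene assessed. Rgs5 and the 2 endothelial genes assessed entered only through the 55 spots, so none of them could be called lower. Fibroblast and meningeal genes summed to 584 against 330 CPM, from 0 to 1946 and 0 to 7691 CPM over spots, with 14 of 18 above 1 and Sparc, a matrix glycoprotein, called higher at 2.53. With each spot thinned to 2000 counts the log2 ratio of Sparc was -0.0812, and only 7 of the 55 spots held a count of it. Foxd1 was at 0. Microglial and macrophage genes summed to 115 against 74.7 CPM, from 0 to 1065 and 0 to 1339 CPM, with 10 of 14 above 1, none assessed, and Tmem119, C1qb, Lyve1 and Pf4 at 0. The 4 globin genes listed were at 0. The part of these cells in the results was not tested.

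Myelin genes moved with rank. Their sum had a ratio of 1.04 in ranks 1 to 25 and 3.99 (3.63 to 4.38) in ranks 26 to 55, where Mbp, which encodes myelin basic protein, had 3.74. Over spots the sum ran from 0 to 14498 CPM in the 55 and from 0 to 18638 CPM in the remaining, 11 of 12 genes had a ratio above 1, and none was called or at 0. Astrocyte genes had a median of 0.00 with 1 of 7 assessed called, the glutamate transporter Slc1a2, 2.08-fold lower but with a log2 ratio of 0.25 in ranks 26 to 55; their sum had a ratio of 0.427 in ranks 1 to 25 and 1.37 in ranks 26 to 55. Of the striatal genes, Ppp1r1b was called higher at 9.60 (7.30 to 12.5), with 10.4 in ranks 1 to 25 and 6.78 in ranks 26 to 55. It encodes the phosphatase inhibitor DARPP-32. With 7.08 counts expected, Ppp1r1b was assessed only through the 55 spots and could not be called lower. The other striatal genes assessed were not called, and the list as a sum had ratios of 0.479 and 1.99 in those ranks. Hippocampal, thalamic and hypothalamic lists had 4 of 7, 5 of 9 and 2 of 2 assessed genes called lower and 0 higher.

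**Figure D5:**
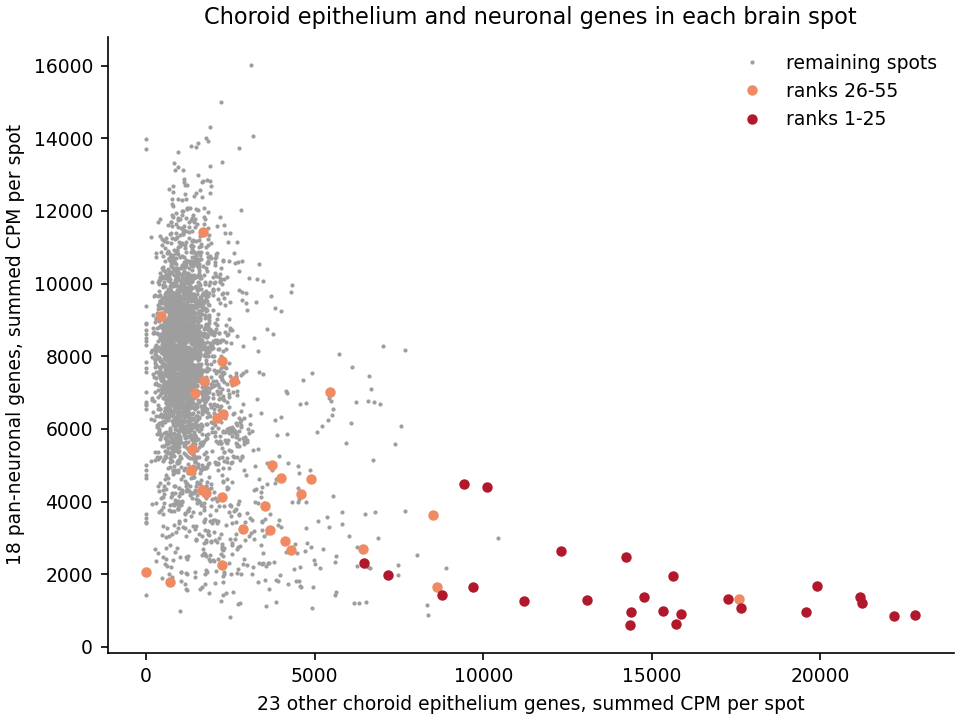
Summed level (CPM) of 18 pan-neuronal genes against that of 23 other choroid epithelium genes in each brain spot. Ranks 1 to 25 lie at the lower right, with neuronal sums of 608 to 4471 CPM, while most of ranks 26 to 55 lie among the remaining spots.

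Gene patterns most like that of the rule genes were ranked over all 3358 spots, each thinned to 2000 counts, among 12145 genes. The Spearman rho was 0.16 for Enpp2 and 0.12 for Htr2c, Zbtb20 and Sulf1. These values are weak at such sparse counts and are a description of spots of 1 library. Zbtb20, a zinc finger factor of hippocampal neurons and glia, was the one among them that was not called, at 1265 against 840 CPM (1.51, 1.41 to 1.61), although 90.9% of the 55 spots and 53.9% of the remaining spots held it at equal depth.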

How the data were processed

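The values are counts per feature and barcode as deposited by the authors, for 1 brain and 1 heart section. Per the submitters' processing notes they were made with STARsolo on build mm39. Its version, and whether molecular tags were merged, introns counted or strand used, are not given in the sources used here. Spot positions were not used here. Among the 40276 features are 23 segments of the ribosomal DNA repeat, which the totals include. Biotypes, spans and overlaps came from GENCODE mouse release 21 (GRCm 38) by gene ID, with 35500 of 40253 IDs found, and none of its coordinates is printed. Counts were summed over spots and divided by the totals. Intervals are exact at 95% (Poisson, binomial, or conditional binomial for ratios), for counting error only. Log2 ratios had 0.5 counts added to each sum. Thinning was random (seed 1).

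Samples were grouped by tissue as labelled, and the comparison is between spots of the brain section. With 1 section there is no test. The genes named are the rule genes; the 25 largest ratios with at least 50 counts and the 12 smallest with 50 expected; the 10 protein-coding genes of highest CPM; the 5 long non-coding RNAs of largest ratio; from each of 26 lists the called members and up to 4 others of most counts; and the 5 best correlated genes. Some genes that this rule names are not reported here. A few more were chosen after their values were seen, as said there. The members and the lists were chosen with earlier results of these data known. The steps were tested on simulated data. In all, 15 alternatives were planned and 2 added after the data were seen. Python 3.11.15, numpy 2.4.6, scipy 1.17.1 and pandas 2.3.3 were used.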

Additional observations from a re-analysis of the deposited data

Results flagged for a closer look

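Barcodes below the depth limit, which entered no comparison, also held the 7 rule genes. The 1634 brain barcodes with under 2000 counts or 200 features had 68 rule-gene counts among 1005951, or 67.6 CPM. The 1943 heart barcodes below the limit had 25 among 832536, or 30.03 CPM, a ratio of 2.25 (1.405 to 3.72, exact interval for counting error only). Ttr gave 35 of the brain counts and 0 of the heart counts. Enpp2 stood at 125.3 CPM in those brain barcodes and 16.8 CPM in the heart ones. The remaining brain spots above the limit had 28.2 CPM of the rule genes.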

How the results depend on the processing

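No paired analysis was possible because each tissue has 1 library. The 362 features called higher became 681 with a floor of 15 counts, 176 with a floor of 60, 19 when spots were thinned to 2000 counts and 38 in ranks 26 to 55 alone; under the other alternatives they were 285 to 509. The 853 called lower became 562 with a floor of 60, 543 when scaled outside ribosomal, mitochondrial and small RNA, 483 when each spot weighed the same, 92 when thinned and 71 in ranks 26 to 55. The thinned and reduced sets hold fewer counts by construction. Of the features called higher, 13 of the 19 when thinned and 6 of the 38 in ranks 26 to 55 were also among the 362; of those called lower, 89 of the 92 and 66 of the 71 were among the 853. Of the named genes that were called or in the rule, all kept their direction except, when thinned, Adora1 (log2 ratio 0.37), Sparc (-0.0812), Hpca (0.30) and Slc6a20a (-0.57), and in ranks 26 to 55, Dnah9 (-0.14), Celf4 (0.11), Gad2 (0.32), Gad1 (0.062) and Slc1a2 (0.25); the cause was not tested. Ranking on Ttr alone, on the 6 other rule genes or at a depth limit of 1000 counts retained 46, 35 and 44 of the 55 spots and all 25 of ranks 1 to 25, and a limit of 5000 counts retained 32 and 24. The alternatives with ranks 26 to 55 alone and with remaining spots of at least 10000 counts were added after the data were seen. Depth limits genes of few counts, and with 1 section nothing here has a replicate check.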

Other observations

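Of the 362 features called higher, 284 were on no list, and those given here were chosen after their values were seen. Bsg, the partner protein of monocarboxylate transporters, had a ratio of 6.59, and the calcium pump gene Atp2b3 5.01. The transcriptional regulator gene Prdm16 had 10.9, the receptor gene Notch2 9.31, the pigment cell factor Mitf 4.64 and the orphan nuclear receptor Esrrg 4.07. Rbm47, an RNA-binding protein of epithelia, had 11.1.

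The melanin-concentrating hormone gene Pmch, expressed by neurons of the lateral hypothalamus, was 16.8-fold lower in the 55 spots than in the remaining spots. Ahi1 was 4.61-fold lower. Olfactory and vomeronasal receptor genes, as a measure of background over 1490 genes and 12834 kb, had 0.0786 CPM per kb in the 55 spots, 0.0661 in the remaining spots and 0.0855 in the heart.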
